A study of Homo sapiens with 12 samples.

Results

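The genes described here encode the subunits of TFIIH, the general transcription factor that opens DNA for RNA polymerase II and for nucleotide excision repair. The 10 listed genes were chosen by symbol, with earlier SP against MP results of these arrays known and GTF2H5 singled out, so every difference between the 2 populations is given as a description, with no test of a member. Of the 10, 9 had a probe set that names them alone, among 18417 such genes. The remaining gene, GTF2H2, had only probe sets that also name its near copies GTF2H2B, GTF2H2C and GTF2H2C_2.

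Side population (SP) cells, which hold little Hoechst dye because membrane transporters pump it out, were compared with main population (MP) cells, which keep it. Both were sorted from 4 established ALCL lines; ALCL, anaplastic large cell lymphoma, is a malignancy of T cells, and these lines are known as carriers of the NPM1-ALK fusion. SUDHL-1 gave 3 SP and 3 MP arrays, and DEL, Karpas299 and SUPM2 gave 1 SP and 1 MP array each, 12 in all, from cells in log-phase growth for which the labels name no treatment but the dye. Sorting in triplicate is stated but separate cultures are not. The p-values within SUDHL-1 and for line levels therefore reflect spread between arrays, which may be technical. In the fit of SP minus MP over the 4 lines they reflect spread between the lines. In such bulk samples fewer cells expressing a gene and less of its RNA per cell cannot be told apart.

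TFIIH has a core and a kinase module. In the core, ERCC3 (XPB) is the translocase that opens promoter DNA, ERCC2 (XPD) is the helicase that unwinds damaged DNA, GTF2H1, GTF2H2, GTF2H3 and GTF2H4 hold and regulate them, and GTF2H5 (TTDA) is a very small protein that stabilises the complex and stimulates ERCC3 in repair. The kinase module joins CDK7, its cyclin CCNH and the assembly factor MNAT1. It phosphorylates the tail of RNA polymerase II and also activates the kinases of the cell cycle. Inherited faults in ERCC2, ERCC3 or GTF2H5 cause trichothiodystrophy, a disorder of repair and transcription.

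Every value below is a log2 signal of a probe set, so a difference of 1 is a doubling, and a gap in signal between genes is not read as a gap in expression. Array medians ran from 4.83 to 5.0 in SUDHL-1 and from 5.24 to 5.35 in the other lines. Of the 7 listed markers of ALK-positive ALCL 6 were measured, and ALK itself had no probe set naming it alone. The mean of the 6 ran from 7.82 to 9.85 on SP arrays and from 7.88 to 10.3 on MP arrays. IL2RA ran from 10.9 to 12.2, GZMB from 9.64 to 12.1, PRF1 from 8.54 to 11.7 and TNFRSF8 from 6.80 to 10.5. EOMES ran from 4.86 to 6.82 and TMOD1 from 3.97 to 10.3. The T-cell list (7 of 7 measured) averaged 5.24 to 7.0 on SP and 5.19 to 6.89 on MP arrays. Within that list CD3D ran from 5.42 to 10.5, CD5 from 4.91 to 9.34 and CD7 from 6.61 to 7.63, while CD3E ran from 3.11 to 4.76 and CD3G from 3.20 to 3.74. CD2 ran from 3.39 to 9.42 and CD4 from 3.45 to 9.66. The B-cell list (4 of 5) averaged 4.12 to 5.06 on SP and 4.27 to 4.98 on MP arrays, and the myeloid list (5 of 5) 4.01 to 4.89 and 4.09 to 5.48. Among the B-cell genes PAX5 ran from 4.51 to 6.78, CD79A from 4.61 to 5.79, CD79B from 4.42 to 5.34 and MS4A1 from 2.83 to 3.37. Among the myeloid genes CSF1R ran from 4.90 to 8.59 and CD14 from 4.28 to 6.31. ITGAM ran from 4.12 to 5.21, MPO from 3.53 to 4.14 and LYZ from 2.44 to 3.25. Of 12 G2/M genes, 12 were higher in SP cells of SUDHL-1, 9 in those of DEL, 11 for Karpas299 and 10 for SUPM2, with list means of 8.40 to 9.50 on SP and 7.52 to 8.83 on MP arrays. The part of dividing cells in the differences below was not tested.

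The stretches before the start sites of GTF2H5 and CDK7 are shown because GTF2H5 was the member with lower signal, and CDK7 the member with higher signal, in SP cells of all 4 lines. They are the 250 bases upstream of the outermost RefSeq start in GRCh38.p14, at chr6:158168100-158168349 and chr5:69234545-69234794, both on the plus strand. Capitals mark matches, on either strand, to a GC box (GGGCGG) or an E-box (CACGTG).
GTF2H5: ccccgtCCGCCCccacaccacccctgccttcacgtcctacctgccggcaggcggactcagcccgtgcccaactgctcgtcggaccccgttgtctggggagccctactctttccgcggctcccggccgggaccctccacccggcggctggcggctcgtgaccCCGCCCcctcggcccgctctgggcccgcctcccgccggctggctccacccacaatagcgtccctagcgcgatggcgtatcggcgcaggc
CDK7: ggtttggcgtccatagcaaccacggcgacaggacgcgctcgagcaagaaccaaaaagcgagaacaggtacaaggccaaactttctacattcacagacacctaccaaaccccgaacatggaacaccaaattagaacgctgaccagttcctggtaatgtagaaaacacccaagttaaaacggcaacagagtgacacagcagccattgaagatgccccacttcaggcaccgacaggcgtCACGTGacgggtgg

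The GTF2H5 window was 74.8% G and C and held GC boxes starting at -244 and -89. The CDK7 window was 52.0% G and C and held an E-box starting at -14. A second CDK7 start in RefSeq lies downstream, and its overlapping window held the same E-box, at -105 from that start, and a GC box at -56. Over the 10 members, with the outermost start of each, 6 windows held a GC box, against 42.6% of 35116 RefSeq promoter windows of the same length, 2 held an E-box (6.34%), 4 held the ETS core CCGGAAG (8.52%), 2 held CCAAT (32%) and 0 held TATAAA (10.7%). These searches covered both strands. The 35116 windows include further starts of some genes, such as CDK7, so they were not counted in the same way as the members. No match means only that the letters are not in the window.

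GTF2H5 had signals of 5.98, 7.81 and 7.72 on the SP arrays of SUDHL-1, against 7.77, 8.92 and 7.59 on its MP arrays. The groups overlapped, with SP array 1 far below and MP array 2 far above the other 4, which lay between 7.59 and 7.81. SP arrays averaged 7.17 ± 1.03 and MP arrays 8.09 ± 0.72 (SD, n = 3 each), a difference of -0.92 with a standard error of 0.59. In the other lines the SP signal was again the lower of the pair, at 6.39 against 6.89 in DEL, 7.39 against 8.23 in Karpas299 and 6.40 against 7.17 in SUPM2. These pairs differed by -0.50 (DEL), -0.84 (Karpas299) and -0.77 (SUPM2), and the mean over the 4 lines was -0.76 ± 0.18 (SD, n = 4 lines). Of all genes, 5.65% were lower in SP cells in all 4 lines, and GTF2H5 was the only 1 of the 9 members among them.

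The direction in SUDHL-1 rested on those 2 arrays. The difference was -0.33 without SP array 1 and -0.51 without MP array 2. With both left out, a choice made after their values were seen, it was 0.09. The mean over the lines was then -0.51, and it was -0.70 without SUDHL-1 altogether. DEL, Karpas299 and SUPM2 have 1 array per population and no replicate error. The mean of the G2/M list was 9.29 on SP array 1 and 8.55 on MP array 2, within the range of the other arrays of each population.

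**Figure D1:**
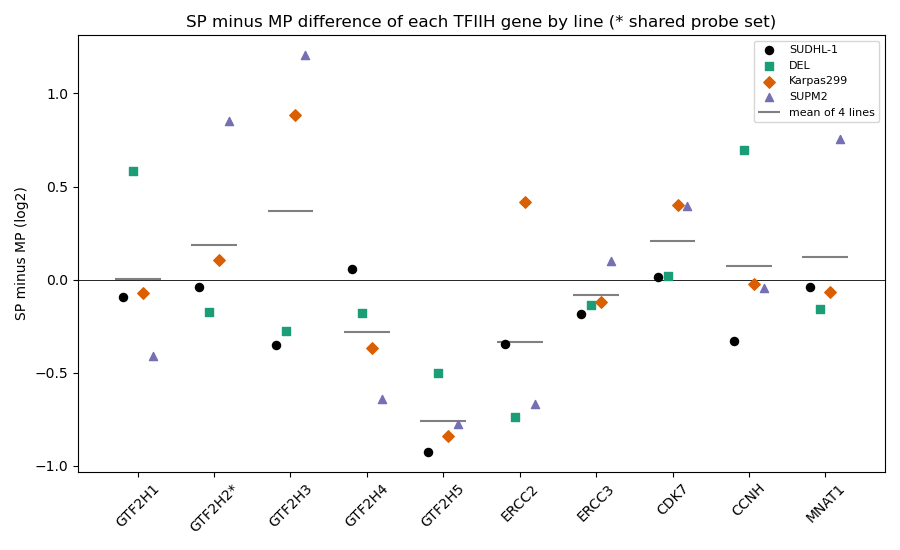
SP minus MP difference in log2 signal (vertical axis) for each TFIIH gene (horizontal axis), 1 symbol per line and a grey bar for the mean of the 4 lines. GTF2H5 lies below 0 in all 4 lines (-0.92 to -0.50) and CDK7 above 0 in all 4 (0.01 to 0.40; -0.02 in SUDHL-1 after centring), while the other genes lie on both sides.

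Among the helicases, ERCC2 stood at 7.14, 7.47 and 7.53 on SP arrays of SUDHL-1 and at 7.48, 7.72 and 7.98 on MP arrays, overlapping by a narrow margin. Its difference was -0.35 there, -0.74 in DEL (7.34 against 8.08) and -0.67 in SUPM2 (6.37 against 7.04). Karpas299 had the opposite sign, with 8.02 in SP and 7.60 in MP cells, a difference of 0.42. ERCC3 had small differences between populations, of -0.18 in SUDHL-1, -0.14 for DEL, -0.12 for Karpas299 and 0.10 in SUPM2. Its SUDHL-1 arrays read 7.29, 8.10 and 7.28 in SP and 7.54, 7.87 and 7.83 in MP cells, so SP array 2 lay above every MP array.

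The structural subunits of the core had no common direction. GTF2H4, which anchors ERCC3, read 8.04, 8.22 and 7.95 on SP arrays of SUDHL-1 and 8.29, 7.91 and 7.82 on MP arrays, a difference of 0.06. In the other lines its SP signal was the lower, with differences of -0.18 in DEL (7.61 against 7.79), -0.37 in Karpas299 (7.0 against 7.36) and -0.64 in SUPM2 (6.50 against 7.14). GTF2H1, which contacts activators and repair factors, read 8.25, 8.57 and 7.60 in SP and 8.41, 8.16 and 8.12 in MP cells of SUDHL-1. Its differences were -0.09 there, 0.58 in DEL, -0.07 in Karpas299 and -0.41 in SUPM2, which average 0.0029.

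GTF2H3, a partner of GTF2H2 in the core, was the most scattered of these genes in SUDHL-1 after GTF2H5, with 7.06, 7.49 and 5.67 on SP arrays and 7.37, 6.73 and 7.17 on MP arrays. Its difference of -0.35 there became 0.18 without SP array 3, which held the low value. In DEL the SP signal was 7.07 and the MP signal 7.35. In Karpas299 (6.86 against 5.98) and SUPM2 (7.39 against 6.18) SP cells had the higher signal, by 0.89 and 1.21, the largest positive differences of any member in those lines.

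GTF2H2 was read through 5 probe sets, of which 2 held identical values and count as 1 reading, and each also names its near copies, so its signal cannot be assigned to 1 gene. On the brightest of them the SUDHL-1 arrays read 10.26, 10.37 and 10.23 in SP and 10.32, 10.30 and 10.36 in MP cells, a difference of -0.04. The pair was 9.15 against 9.33 in DEL, 8.56 against 8.46 in Karpas299 and 8.54 against 7.69 in SUPM2. The SUPM2 difference was 0.85 on this probe set and 0.85 to 1.01 over all 5, while the other lines stayed between -0.20 and 0.15.

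In the kinase module, CDK7 read 9.28, 9.93 and 9.93 on SP arrays of SUDHL-1 and 9.81, 9.61 and 9.68 on MP arrays, so the SP arrays lay on both sides of the MP arrays. Its differences were 0.01 in SUDHL-1, 0.02 for DEL (8.89 against 8.87), 0.40 for Karpas299 (8.58 against 8.18) and 0.40 in SUPM2 (8.95 against 8.55). It was the 1 member of 9 with a higher signal in SP cells of all 4 lines, as were 8.09% of all genes, although in SUDHL-1 and DEL the difference was close to 0, and in SUDHL-1 it became -0.02 when each array was centred on its median. CDK7 has 2 probe sets and GTF2H4 has 3, and their values were identical on every array, so they count as 1 reading each.

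CCNH read 8.27, 8.96 and 8.30 in SP and 8.92, 8.89 and 8.70 in MP cells of SUDHL-1, with SP array 2 above and the other SP arrays below all MP arrays. Its difference was -0.33 in SUDHL-1, 0.69 for DEL (8.72 against 8.03), -0.02 for Karpas299 and -0.05 in SUPM2. MNAT1 read 9.17, 9.58 and 9.35 in SP and 9.58, 9.69 and 8.97 in MP cells of SUDHL-1. Its differences were -0.04 in SUDHL-1, -0.16 in DEL and -0.06 in Karpas299, against 0.76 in SUPM2 (8.03 against 7.27). In SUDHL-1 all 3 genes of the module were below 0 after median centring (CDK7 -0.02, CCNH -0.36, MNAT1 -0.08), without SP array 2 (CDK7 -0.10, CCNH -0.55, MNAT1 -0.15) and without SP array 3 (CDK7 -0.09, CCNH -0.22, MNAT1 -0.03). They were not all below 0 as deposited (CDK7 0.01), after a new quantile normalization (CDK7 0.0038) or without SP array 1 (CDK7 0.23, MNAT1 0.06). The same held without MP array 1 (CDK7 0.07, MNAT1 0.04), MP array 2 (MNAT1 0.10) or MP array 3 (CDK7 0.0055). CCNH stayed below 0 in each of these settings.

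**Figure D2:**
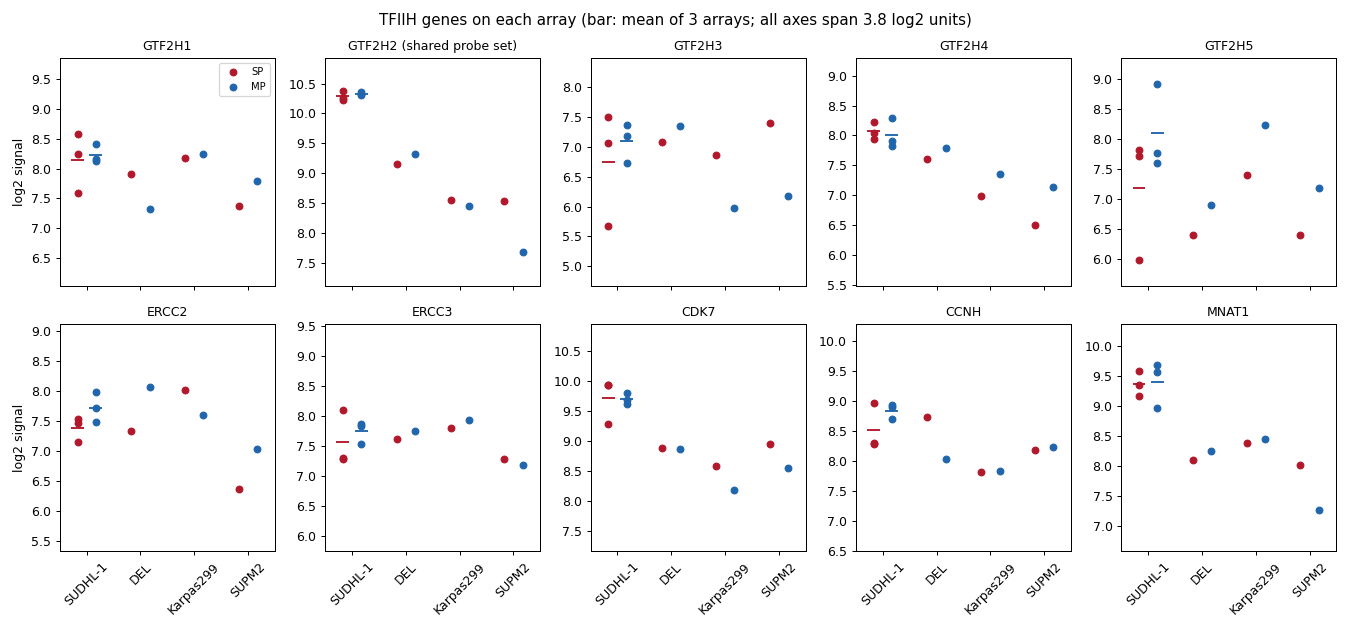
Log2 signal (vertical axis, the same span in each panel) of each TFIIH gene on the 12 arrays, by line (horizontal axis), with SP in red left of MP in blue and a short bar for the mean of 3 SUDHL-1 arrays. SP and MP arrays of SUDHL-1 overlap for every gene, and GTF2H5 shows the low SP array 1 (5.98) and the high MP array 2 (8.92).

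Taking the 9 genes as a list, SUDHL-1 showed 7 with a lower mean in SP cells, DEL and Karpas299 6 each, and SUPM2 5. Their median difference was -0.18 in SUDHL-1 (all genes -0.00024), -0.16 for DEL (all genes 0.02), -0.06 for Karpas299 (all genes -0.0059) and -0.05 in SUPM2 (all genes 0.07). The median of the 4-line means was 0.0029 for the members and 0.02 for all genes. A difference past 0.5 in either direction was found in SUDHL-1 for 1 of 9 members (GTF2H5) and 5.71% of all genes, in DEL for 4 (14.8%), in Karpas299 for 2 (16.8%) and in SUPM2 for 5 (26.3%).

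In SUDHL-1 the SP and MP arrays were separate for 0 of 9 members, and for 7.16% of all genes. Limma, fitted over all 18417 genes with Benjamini-Hochberg adjustment and a threshold of 0.05, called 0 genes (0%) in SUDHL-1 and 0 (0%) over the 4 lines, and therefore 0 of 9 members in each. At an unadjusted p under 0.05 there were 577 of 18417 genes in SUDHL-1 and 904 of 18417 over the 4 lines. Neither count is above the share of 0.05 that chance alone would give. A robust trended fit also called 0 after adjustment. When single SUDHL-1 arrays were left out, the sign of the SUDHL-1 difference turned for 5 of 9 members and kept its side for GTF2H5, ERCC2, ERCC3 and CCNH.

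The arrays of SUDHL-1 also differed from each other across the members. SP array 2 had the highest of the 3 SP signals for 8 of 9 members, SP array 1 the lowest for 5 and SP array 3 the lowest for 4. On the MP side array 1 was highest for 5 and array 3 lowest for 5. The gap between the highest and lowest SP array was 0.27 for GTF2H4 and 1.84 for GTF2H5.

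Likeness of pattern was measured by Pearson's r over the 12 arrays after each line's mean was subtracted, and is a description over arrays that share 4 lines. GTF2H5 lay farthest from its line mean on SUDHL-1 SP array 1 (5.98) and MP array 2 (8.92), so those arrays weigh most in its r. Likeness without them was not computed. The genes closest to GTF2H5 were ZNF239, a zinc finger gene (r = 0.94), HENMT1, a methyltransferase of small RNAs (0.94), GET3, a targeting factor for tail-anchored proteins (0.92), OR6K3, an olfactory receptor gene (0.92), and SSU72, a phosphatase of the RNA polymerase II tail (0.91). Their SP minus MP differences averaged -0.40 to -0.15 over the 4 lines, a sign that choosing genes by likeness to GTF2H5 on these same arrays favours. The nearest member was ERCC3 (r = 0.54, rank 1079 of 18416 genes), and the farthest was GTF2H3 (-0.28). Within the kinase module r was 0.47 between CDK7 and MNAT1, 0.26 between CDK7 and CCNH and 0.26 between CCNH and MNAT1. The closest pair seen from CCNH was GTF2H1 (0.74, rank 119).

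Levels between lines, averaged over SP and MP arrays, were not the contrast that the members were chosen with, and were tested in a limma fit of all 12 arrays with population as a covariate. DEL, Karpas299 and SUPM2 each gave 1 SP and 1 MP array, so the error is the spread between arrays and not between cultures. That error also holds any difference between lines in SP minus MP. Over these 3 lines the moderated F called 1 of 9 members, beside 13.4% of all genes. The member was ERCC2 (adjusted p = 0.0356), at 7.81 ± 0.29 in Karpas299, 7.71 ± 0.52 in DEL and 6.71 ± 0.47 in SUPM2 (SD, n = 2 arrays each, 1 SP and 1 MP). Such an SD restates the gap between the SP and the MP array of a line and is not a replicate spread. Karpas299 minus SUPM2 was 1.11 with a standard error of 0.28 (limma adjusted p = 0.0283), and DEL minus SUPM2 was 1.00 (adjusted p = 0.0522). The F call for ERCC2 was kept by 8 of 13 alternatives (adjusted p 0.0301 to 0.164). It was lost without SUDHL-1 SP array 2 (0.0541) or MP array 2 (0.0546), which enter the estimate of error, with the 6 arrays of the 3 lines alone (0.164), with a robust trended variance (0.0519) and with all probe sets tested (0.0699).

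Between pairs of lines, limma called 0 of 9 members for DEL minus Karpas299 (5.2% of all genes), 1 for DEL minus SUPM2 (8.34%) and 1, ERCC2, for Karpas299 minus SUPM2 (10.7%). The DEL and SUPM2 pair was called for GTF2H4, at 7.70 ± 0.13 in DEL and 6.82 ± 0.45 in SUPM2 (SD, n = 2 arrays each, 1 SP and 1 MP), a difference of 0.88 with adjusted p = 0.0396, kept by 8 of 13 alternatives (0.0304 to 0.0822). Its F over the 3 lines missed the threshold (adjusted p = 0.0629). GTF2H2 was fitted among all probe sets, where 2 of its 4 distinct readings passed the F (adjusted p 0.0330 and 0.0372) and the others did not (0.0604 and 0.0733).

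GTF2H5 itself stood at 7.81 ± 0.59 in Karpas299, 6.79 ± 0.55 in SUPM2 and 6.64 ± 0.35 in DEL (SD, n = 2 arrays each, 1 SP and 1 MP), and at 7.63 ± 0.94 over the 6 arrays of SUDHL-1. Limma called none of the 3 pairs among DEL, Karpas299 and SUPM2, with adjusted p of 0.361 for DEL minus Karpas299, 0.332 for Karpas299 minus SUPM2 and 0.914 for DEL minus SUPM2. SUDHL-1 was not tested against single lines, and its difference from their mean was 0.55 (adjusted p = 0.158). The F of GTF2H5 over the 3 lines had adjusted p = 0.342 and passed only in the fit of their 6 arrays alone (0.0420), of 13 alternatives tried (0.0420 to 0.448).

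SUDHL-1 lay above the mean of the other 3 lines for 9 of 9 members, from 0.06 for ERCC3 to 1.30 for MNAT1. The sign turned without SP array 2 for ERCC3 (-0.05) and GTF2H3 (-0.0045), and without MP array 1 for GTF2H3 (-0.0057). Limma called 16.4% of all genes higher in SUDHL-1 and 65.6% in either direction. Among genes at least as bright as the dimmest member the shares were 38.1% and 68.9%, and the median difference was itself above 0, at 0.09. Beside these shares, 4 of 9 members were called higher, which is near the 38.1% of equally bright genes. The 4 members were MNAT1 (9.39 ± 0.28 over 6 SUDHL-1 arrays, difference 1.30, adjusted p = 5.67e-05), CDK7 (9.71 ± 0.25, 1.04, 7.46e-05), GTF2H4 (8.04 ± 0.18, 0.81, 0.000355) and CCNH (8.67 ± 0.31, 0.54, 0.0163). All 3 genes of the kinase module were among them, which is a description, as the module was not tested as a set. For MNAT1 the other lines stood at 8.18 ± 0.11 in DEL, 8.42 ± 0.05 in Karpas299 and 7.65 ± 0.53 in SUPM2 (SD, n = 2 arrays each, 1 SP and 1 MP). These 4 calls were kept by 12 of 12 alternatives. The shared GTF2H2 probe sets showed the widest gap, with 1.69 to 1.83 (adjusted p 6.04e-06 to 1.52e-05 among all probe sets), and over all 5 the SUDHL-1 arrays read 10.1 to 10.4, above the highest array of the other lines (9.33).

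The SUDHL-1 arrays form a set with lower medians, so line and array set cannot be told apart, and the share called in all genes was large. Over all genes the median of SUDHL-1 minus the other lines was -0.33 as deposited and 0.04 after each array was centred on its median. Of the genes called, 25% were higher in SUDHL-1 as deposited (3014 higher and 9059 lower), 54.3% after centring and 44.9% after a new quantile normalization. The members lay above 0 in all 3 scalings, with medians of 0.54, 0.90 and 0.53. Among the 5453 genes whose mean signal was at least that of the dimmest member, the median was 0.09 and 38.1% were called higher, beside the 4 of 9.

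**Figure D3:**
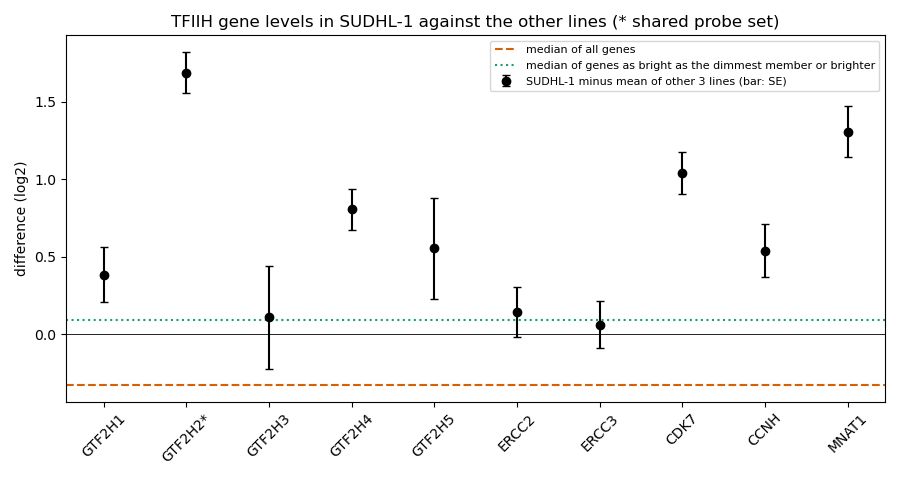
SUDHL-1 minus the mean of DEL, Karpas299 and SUPM2 in log2 signal (vertical axis) for each TFIIH gene, with bars for the standard error, and lines for the median of all genes (-0.33) and of genes as bright as the dimmest member (0.09). MNAT1, CDK7 and the shared GTF2H2 probe set lie above 1.

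Genes that work with TFIIH were described by lists. Of 14 measured nucleotide excision repair genes (of 17 listed), SUDHL-1 showed 9 with lower SP signal, and 7 were lower on the mean of the 4 lines, with a median of -0.0045. The most different were XAB2, a splicing and repair factor, at -0.26 ± 0.38, RPA1, a subunit of the single-strand DNA binder, at 0.17 ± 0.10, and the nuclease ERCC4 at 0.16 ± 0.63 (mean ± SD, n = 4 lines). Of the 8 other general transcription factors, 6 were higher, with a median of 0.03, and the TATA-binding protein TBP, GTF2B and GTF2F1 averaged -0.33 ± 0.42, 0.29 ± 0.26 and -0.28 ± 0.31. Subunits of RNA polymerase II were lower for 7 of 12, with a median of -0.08, and POLR2E, POLR2I and POLR2J averaged -0.51 ± 0.42, -0.49 ± 0.43 and -0.36 ± 0.37.

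Kinases and cyclins of transcription other than CDK7 were split 5 to 5, with a median of 0.01 over 10 measured genes. CDK9, the kinase that releases paused polymerase, averaged 0.61 ± 0.32 and was higher in SP cells of each line (0.23 in SUDHL-1, 0.86 for DEL, 0.46 for Karpas299 and 0.88 for SUPM2), with CCNT2, a cyclin partner of CDK9, at 0.32 ± 0.18 and CCNL1 at 0.27 ± 0.45 (SD, n = 4 lines). Among the cell cycle kinases that the TFIIH kinase activates, CDK1 averaged 1.01 ± 0.49, CDK2 -0.44 ± 0.32 and CDK6 -0.29 ± 0.35. G2/M genes were higher for 12 of 12 on the mean of the lines, with a median of 0.61 and the largest values for CDK1, PLK1 (0.89 ± 0.40) and TOP2A (0.82 ± 0.47). Limma called 0 members of these lists, as of all genes, so these counts are descriptions beside the all-gene median of 0.02. Of all genes, 44.4% were lower on the mean of the lines and 50.1% in SUDHL-1.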

How the data were processed

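Per the labels' protocols, RNA of the sorted cells was amplified with the NuGEN Ovation Pico system, and biotin-labelled product went onto Affymetrix arrays. As deposited, values are log2 signals that the authors made with RMA, per the submitters' processing notes; RMA version and annotation build are not given in the sources used here, nor whether the 12 arrays were normalized together. Arrays have no read depth, so their number limits the precision. All 12 columns were used as deposited.

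Of 33297 probe sets, 19460 had 1 gene symbol in the platform annotation, 1754 several and 12083 none. The probe set with the highest mean stood for a gene. Limma 3.58.1 (R 4.3.3; lmFit, eBayes, two-sided, Benjamini-Hochberg over all genes) fitted SP minus MP in SUDHL-1 (4 residual degrees of freedom), 1 difference per line over the 4 lines (3) and line levels with population as covariate (7). Fits were tested on simulated data. Promoter windows came from RefSeq (GRCh38.p14), which matched 10 of 10 members.

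Members, lists, tests and alternatives were chosen with earlier results of these data known. Named genes were the 10 members, the 3 with the largest 4-line difference in each companion list and the 5 most like GTF2H5.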

Additional observations from a re-analysis of the deposited data

Results flagged for a closer look

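For each of the 9 members the 4 line differences were searched for 1 value far from the others, as a description and not a test. MNAT1 had one in SUPM2, where SP minus MP was 0.76 while the other 3 lines lay between -0.16 and -0.04. The gap to the nearest line was 0.87 of the whole range. SUPM2 has 1 array per population, and chance gives such a value in about 1 of 20 groups. As 9 groups were searched, 1 such value can arise by chance.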

How the results depend on the processing

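The mean GTF2H5 difference over the 4 lines (-0.76) kept its sign in every alternative run, from -0.85 to -0.61 when 1 SUDHL-1 array or 1 line was left out. It moved to -0.51 without SUDHL-1 SP array 1 and MP array 2, an alternative added after the data were seen, in which the SUDHL-1 difference alone was 0.09. Genes called for SP minus MP in SUDHL-1 numbered 0 as reported and in the alternatives, except 1 when all probe sets were tested. Replicate numbers did not pair the SUDHL-1 arrays (correlations of same-numbered deviations -0.0037, -0.08 and -0.13), and with the replicate block the count was also 0. Members called over DEL, Karpas299 and SUPM2 (1) became 2 after a new quantile normalization, 0 with a robust trended variance and 0 with all probe sets tested, and ran from 0 to 2 with single SUDHL-1 arrays left out. Members called for SUDHL-1 against the other lines (4) became 7 when each array was centred on its median, which adds GTF2H1 (0.75), GTF2H5 (0.92) and ERCC2 (0.51). GTF2H5 was also called there without SUDHL-1 SP array 1 (0.83, adjusted p = 0.0102, limma), within a range of 0.0102 to 0.322. Causes of these changes were not tested. With 1 array per population in 3 lines, differences there have no replicate error.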
